A study of Mus musculus with 21 samples.

Results

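Gata1, Gata2, Zfpm1, Cebpa, Cebpb, Cebpe, Spi1, Id1, Id2 and Trib1 encode transcription factors and their regulators that act when a bone marrow progenitor becomes an eosinophil. The 10 genes were matched by symbol, and each was found once in all 3 deposited tables, which list 15945, 22274 and 16645 genes. Messenger RNA of 21 libraries from mice of WT genotype had been sequenced, and each table was normalized and tested on its own. The first table set 3 libraries of untreated bone marrow eosinophils against 3 of untreated bone marrow granulocyte-macrophage progenitors (GMPs), to find the programs that separate them. The second set 3 libraries of cytokine-stimulated eosinophils (T2, for type 2 immunity) against 3 of untreated, resting eosinophils, as a model of an allergic response. The third asked how iron supply acts on differentiation in eosinophils grown from marrow in culture (bone marrow-derived eosinophils, BMDEs). It had 4 libraries of BMDEs given the iron source ferric ammonium citrate (FAC, 10 µM), 3 given the chelator deferoxamine (DFO, 5 µM) and 2 untreated controls. All 3 BMDE arms had SCF and FLT3L at 100 ng/mL for 4 days and then IL-5 at 10 ng/mL, with FAC or DFO added on day 4 and RNA taken on day 7. The labels of the T2 libraries name IL-4 and GM-CSF in all 3, beside IL33 in replicate 1, IL34 in replicate 2 and IL35 in replicate 3. They give the BMDE culture text for every sample, so the source and purity of the GMPs and of the other eosinophils are not known from them, and they do not say whether the replicates of a group are separate animals or cultures. The p-values below therefore reflect the spread among these libraries alone, which may be technical.

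As background, GATA-1 and GATA-2 are zinc finger proteins that bind GATA motifs and switch on eosinophil, mast cell, erythroid and megakaryocyte genes, while FOG-1, the product of Zfpm1, is their cofactor and held back the eosinophil program when forced into chicken progenitors. C/EBPα and PU.1 (Spi1) open myeloid genes in progenitors, C/EBPε drives granule genes in maturing eosinophils and neutrophils, and C/EBPβ acts in activated and stress-induced myelopoiesis. ID1 and ID2 bind E proteins and keep them off DNA, and Tribbles-1, a pseudokinase, brings C/EBPα to the COP1 ubiquitin ligase for degradation.

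On GRCm38 (GENCODE M21 annotation), Gata1 spans chromosome X from 7959260 to 7978071 on the minus strand. Gata2 spans chromosome 6 from 88193891 to 88207032 and Zfpm1 chromosome 8 from 122282141 to 122337251, both on the plus strand. The 3 C/EBP genes are short. Cebpa lies on chromosome 7 (35119293 to 35121928, plus strand), Cebpb on chromosome 2 (167688915 to 167690418, plus strand) and Cebpe on chromosome 14 (54710360 to 54712174, minus strand). Spi1 spans chromosome 2 from 91082390 to 91115756 and Id1 the same chromosome from 152736251 to 152737410. Id2 lies on chromosome 12 (25093799 to 25097140, minus strand) and Trib1 on chromosome 15 (59648350 to 59657099, plus strand). Cebpa, Cebpb and Id1 have 1 exon in their longest transcript. Gm45091 overlaps Cebpa and Tmem189 overlaps Cebpb on the opposite strand, and Gm20388 overlaps Zfpm1 on the same strand. Whether the counting used strand is not given in the sources used here, so reads of these overlapping genes cannot be told apart.

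Start-site windows of 300 bases (250 before and 50 after the start) from RefSeq on GRCm38.p6 were matched for 6 of the 10 genes. Those of Gata1, Gata2 and Cebpa are shown because Gata1 and Gata2 were both higher, and Cebpa lower, with FAC than with DFO. Each is written 5′ to 3′ on the strand of its gene. Capitals mark CACCC in Gata1 (chrX:7967861-7968160, minus strand), CCAAT and CACCC in the second of the Gata2 windows (chr6:88198414-88198713, plus strand), and TATAAA and CACCC in Cebpa (chr7:35119043-35119342, plus strand), each on either strand, so that GGGTG is CACCC and ATTGG is CCAAT read on the other strand.
Gata1: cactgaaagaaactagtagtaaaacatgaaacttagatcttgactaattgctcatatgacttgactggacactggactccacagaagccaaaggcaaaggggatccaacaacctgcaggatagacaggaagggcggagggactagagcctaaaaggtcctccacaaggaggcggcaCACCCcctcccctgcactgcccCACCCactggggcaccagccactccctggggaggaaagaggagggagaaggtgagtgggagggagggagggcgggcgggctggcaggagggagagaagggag
Gata2: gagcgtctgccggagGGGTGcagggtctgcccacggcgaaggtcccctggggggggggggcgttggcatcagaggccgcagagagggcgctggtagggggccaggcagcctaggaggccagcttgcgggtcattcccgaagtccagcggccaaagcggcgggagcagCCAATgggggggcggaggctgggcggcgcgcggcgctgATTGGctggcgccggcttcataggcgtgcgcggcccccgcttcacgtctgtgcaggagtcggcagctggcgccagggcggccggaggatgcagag
Cebpa: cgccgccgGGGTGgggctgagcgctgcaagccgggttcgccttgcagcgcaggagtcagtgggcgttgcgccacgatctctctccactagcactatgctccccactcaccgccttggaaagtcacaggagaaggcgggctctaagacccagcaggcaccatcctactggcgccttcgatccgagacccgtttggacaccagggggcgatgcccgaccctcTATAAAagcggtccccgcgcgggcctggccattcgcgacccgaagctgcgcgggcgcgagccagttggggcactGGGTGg

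None of the 7 windows of these 6 genes held a GATA motif or a C/EBP motif, both strands searched. The GATA motif searched was AGATAA or else AGATAG or, with a leading thymine, TGATAA or else TGATAG, and the C/EBP motif was TTNNGCAA. Of 32851 mouse windows of the same length, 29.8% held 1 or more of these GATA motifs and 10.8% the C/EBP motif. The Cebpa window had TATAAA 30 bases before its start, and 13.6% of all windows held TATAAA. The Gata2 window had CCAAT at 83 and 45 bases before its start, and CCAAT was in 37.4% of all windows. The motif CACCC was in 57.5% of them. These are letter matches in a short window and not sites of binding.

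Total counts ran from 25857382 to 28992668 per library in the first table, 16073573 to 18995878 in the second and 16809789 to 17991878 in the third. Levels below are CPM (reads per unit of TMM-scaled library size), and levels of different genes are compared only per transcript length, as TPM. A gene was called changed at a Benjamini-Hochberg adjusted p under 0.05 in edgeR's quasi-likelihood test. Bone marrow eosinophil library 3 stood apart from libraries 1 and 2, with a TMM factor of 0.689 against 0.914 to 1.21 in the other 5 libraries of its table. FAC library 6 stood apart in the third table, at 52.7 on the first principal component against 18.0 to 27.3 in the other 3 FAC libraries. Eosinophil markers (Prg2, Epx, Il5ra and others, 10 in all) summed to 20125 to 36901 CPM in bone marrow eosinophils and 94.8 to 254 CPM in GMPs. The libraries labelled bone marrow eosinophils also held 38826 to 207406 CPM of 14 neutrophil markers, against 96.4 to 140.0 CPM in GMPs. Eosinophil library 3, which stood apart, held the most of these markers (207406 CPM, against 38826 and 82641 CPM in libraries 1 and 2). In bulk RNA, fewer cells of a type and less RNA per cell cannot be told apart.

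**Figure D1:**
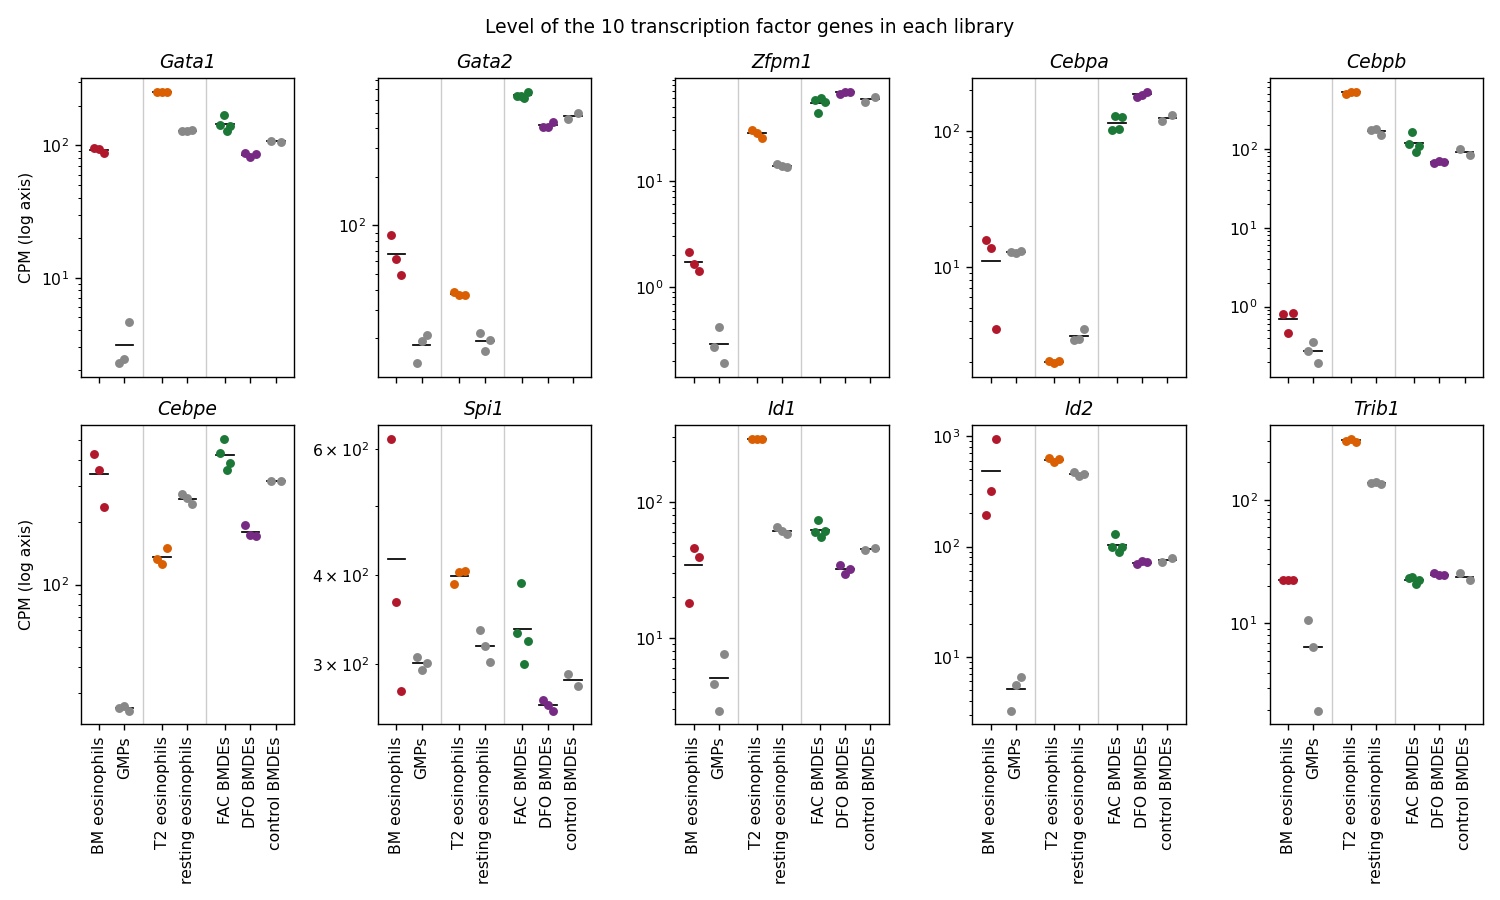
Level of each of the 10 genes in every library, as CPM on a log axis (each panel has its own range); points are libraries, horizontal lines are group means, and grey vertical lines separate the 3 tables, which were normalized separately. Gata1 lies at 87.8 to 95.7 CPM in bone marrow eosinophils and at 2.25 to 4.63 CPM in GMPs, while Spi1 lies between 259 and 621 CPM in all 21 libraries.

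In bone marrow eosinophils, the GATA factors, FOG-1, C/EBPε and both ID proteins had higher transcript levels than in GMPs. Id2 rose most, by 6.57 on the log2 scale (5.65 without eosinophil library 3), followed by Gata1 at 4.90, Cebpe at 3.75, Id1 at 2.75, Zfpm1 at 2.55 and Gata2 at 1.87. No member fell, and Cebpa, Cebpb, Spi1 and Trib1 were not called. So 6 of 10 members were called in this comparison, all higher, where 19.8% of the 12214 genes tested were called (13% higher and 6.78% lower). Among the 6 was Zfpm1, which had few reads in both groups (given below). The median log2 fold change was 2.21 over the members and 0.01 over all genes tested.

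Gata1 was at 95.7, 94.3 and 87.8 CPM in bone marrow eosinophils 1, 2 and 3, against 2.25, 2.44 and 4.63 CPM in GMPs 1, 2 and 3. The groups were far apart and the eosinophil libraries lay close together, with a log2 fold change of 4.90 ± 0.34 (SE, n = 3 each, edgeR adjusted p = 0.000354). Gata2 was at 87.6, 61.9 and 49.1 CPM in bone marrow eosinophils, against 14.0, 19.3 and 20.96 CPM in GMPs. Gata2, the factor of earlier progenitors, thus rose less than Gata1. Its log2 fold change was 1.87 ± 0.28 (SE, n = 3 each, edgeR adjusted p = 0.00628), with no overlap in CPM. On the authors' TPM the groups overlapped, with 42.6, 22.65 and 9.19 TPM in bone marrow eosinophils against 9.40, 14.6 and 13.3 TPM in GMPs. Gata2 was not called on that scale (0.73, limma adjusted p = 0.262), where the median of all genes was -0.96. Per transcript length Gata1 exceeded Gata2 in eosinophils and lay under it in GMPs: the ratio of their TPM was 1.94, 2.69 and 3.16 in bone marrow eosinophils, against 0.285, 0.222 and 0.394 in GMPs.

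Zfpm1 was near the detection limit of both groups, with 59, 43 and 25 reads in bone marrow eosinophils, against 9, 13 and 6 reads in GMPs. At 1.40 to 2.14 CPM in eosinophils and 0.192 to 0.417 CPM in GMPs the groups did not overlap, and the log2 fold change was 2.55 ± 0.72 (SE, n = 3 each, edgeR adjusted p = 0.0482). Zfpm1 and Cebpb passed the filter on low counts mainly through the eosinophil libraries, since only 1 of 3 GMP libraries reached its level of 0.365 CPM for either gene. The Zfpm1 call ended without any 1 library other than eosinophil library 3 (edgeR adjusted p = 0.0807 to 0.233).

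Among the C/EBP genes, Cebpe was at 428, 358 and 236 CPM in bone marrow eosinophils, against 25.4, 26.0 and 24.6 CPM in GMPs. All eosinophil libraries lay far above the GMP libraries, eosinophil library 3 least so, and the log2 fold change was 3.75 ± 0.26 (SE, n = 3 each, edgeR adjusted p = 0.000341). Cebpa was at 15.7, 13.7 and 3.48 CPM in bone marrow eosinophils, against 12.8, 12.6 and 13.1 CPM in GMPs. Libraries 1 and 2 lay just above the GMPs and library 3 far below them, so that the estimate of -0.22 (95% interval -1.50 to 1.06, edgeR adjusted p = 0.794) turned to 0.20 without library 3. The Cebpe to Cebpa ratio of TPM was 64.1, 61.3 and 157 in bone marrow eosinophils, against 4.70, 4.88 and 4.45 in GMPs. Cebpb had only 22, 12 and 15 reads in bone marrow eosinophils, against 9, 11 and 6 in GMPs, and its log2 fold change of 1.35 was not called (95% interval -0.47 to 3.17, edgeR adjusted p = 0.251).

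Per transcript length Spi1 was the highest member in all 3 GMP libraries (462 to 534 TPM) but in only 1 of the 3 bone marrow eosinophil libraries, with 725, 320 and 121 TPM in eosinophil libraries 1, 2 and 3, and Cebpe and Id2 lay above it in libraries 2 and 3. In CPM it was at 621, 366 and 275 CPM in bone marrow eosinophils, against 308, 294 and 301 CPM in GMPs. Library 1 lay well above the GMP level and library 3 under it, so the groups overlapped and the log2 fold change of 0.48 was not called (95% interval -0.22 to 1.19, edgeR adjusted p = 0.286). Without library 3 it was called at 0.71 (edgeR adjusted p = 0.0327), and on the authors' TPM it was -0.70, where the median of all genes was -0.96.

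Id1 was at 18.1, 45.6 and 39.5 CPM in bone marrow eosinophils, against 4.63, 2.95 and 7.70 CPM in GMPs. Id2 was at 195, 319.6 and 948 CPM in bone marrow eosinophils, against 3.28, 5.54 and 6.55 CPM in GMPs. Both ID genes were higher in every eosinophil library, Id1 by 2.75 ± 0.50 and Id2 by 6.57 ± 0.74 on the log2 scale (SE, n = 3 each, edgeR adjusted p = 0.0124 and 0.00196). Library 3, the one that stood apart, had the most Id2, and without it the Id2 difference was 5.65 (edgeR adjusted p = 1.50e-05). The Id1 call ended without GMP library 1 (edgeR adjusted p = 0.0709) or GMP library 2 (0.0563).

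Trib1 was at 22.5, 22.3 and 22.6 CPM in bone marrow eosinophils, against 10.8, 6.50 and 1.98 CPM in GMPs. The eosinophil libraries were alike and the GMP libraries widely spread. The groups did not overlap, but the log2 fold change of 1.81 was not called (95% interval 0.44 to 3.17, edgeR adjusted p = 0.0695). It was called without eosinophil library 3 (edgeR adjusted p = 0.0334) and by DESeq2 (adjusted p = 0.0117). Of the 10 members, 8 did not overlap between the groups, against 48.3% of all genes tested. Among the 8 were Zfpm1 and Cebpb, which had few reads and passed the filter on low counts mainly through the eosinophil libraries.

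Over the 6 lists of partners and related transcription factors, 14 of 64 genes tested rose and 5 fell, which is 29.7% called, against 19.8% of all genes. Of 16 GATA partners tested, 4 rose and none fell, with a median of 0.21. Klf1, an erythroid factor, rose by 5.52, and Gfi1b, a transcriptional repressor that acts in erythroid and megakaryocyte cells, by 3.85. Of 10 ETS genes beside Spi1, 4 rose and 2 fell, among them Spic (7.63) and Spib (7.34) upward and Etv6 (-0.98) and Elf1 (-0.91) downward. Of 4 ID and E protein genes tested, Id3 rose by 4.05 and the E protein gene Tcf4 fell by 1.16. Of 6 genes of the Tribbles and COP1 list, Trib2 rose by 5.08 and Trib3 by 5.53 (edgeR adjusted p = 0.00121 and 0.0495). Trib3 stood on 2.63 ± 3.51 CPM in bone marrow eosinophils and 0.0520 ± 0.0484 CPM in GMPs (SD, n = 3 each). None of 8 other C/EBP and bZIP genes was called, and of 20 further granulocyte and progenitor factors 3 rose and 2 fell, with Gfi1 at 1.73, Ikzf2 at 1.43, Irf8 at -3.65 and Klf4 at -3.22.

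Marker lists of other cell types moved in both directions. The 10 progenitor markers summed to 36840 to 62278 CPM in bone marrow eosinophils and 51511 to 61509.7 CPM in GMPs, with 1 higher and 3 lower, so the libraries labelled bone marrow eosinophils held progenitor RNA in a range that takes in that of the GMPs. Mpo, the myeloperoxidase gene of granulocyte progenitors, had the largest share of counts of any gene in eosinophil libraries 1 and 2 (4.59% and 2.85%), as in the GMP libraries (5.17% to 5.67%). In eosinophil library 3 the largest share was that of the neutrophil marker S100a8 (5.19%). All 14 neutrophil markers rose (ranges given above), and so did 14 of 16 erythroid markers, which summed to 1595 to 3304 CPM in bone marrow eosinophils and 42.7 to 50.8 CPM in GMPs. Of 8 mast cell and basophil markers tested, 7 rose, with sums of 2039 to 3168 CPM in bone marrow eosinophils and 336 to 613 CPM in GMPs. Of 10 megakaryocyte markers 3 rose, and all 9 B cell markers tested rose, 4 of the 10 on that list being at 0 in every GMP library. Monocyte and macrophage markers summed to 3640 to 5233 CPM in bone marrow eosinophils and 4241 to 5068 CPM in GMPs, with 9 of 14 higher and 4 lower, and of 11 dendritic cell markers tested 5 rose and 2 fell. The part of these markers in the values of Gata1, Gata2, Zfpm1, Cebpe, Id1 and Id2 was not tested.

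**Figure D2:**
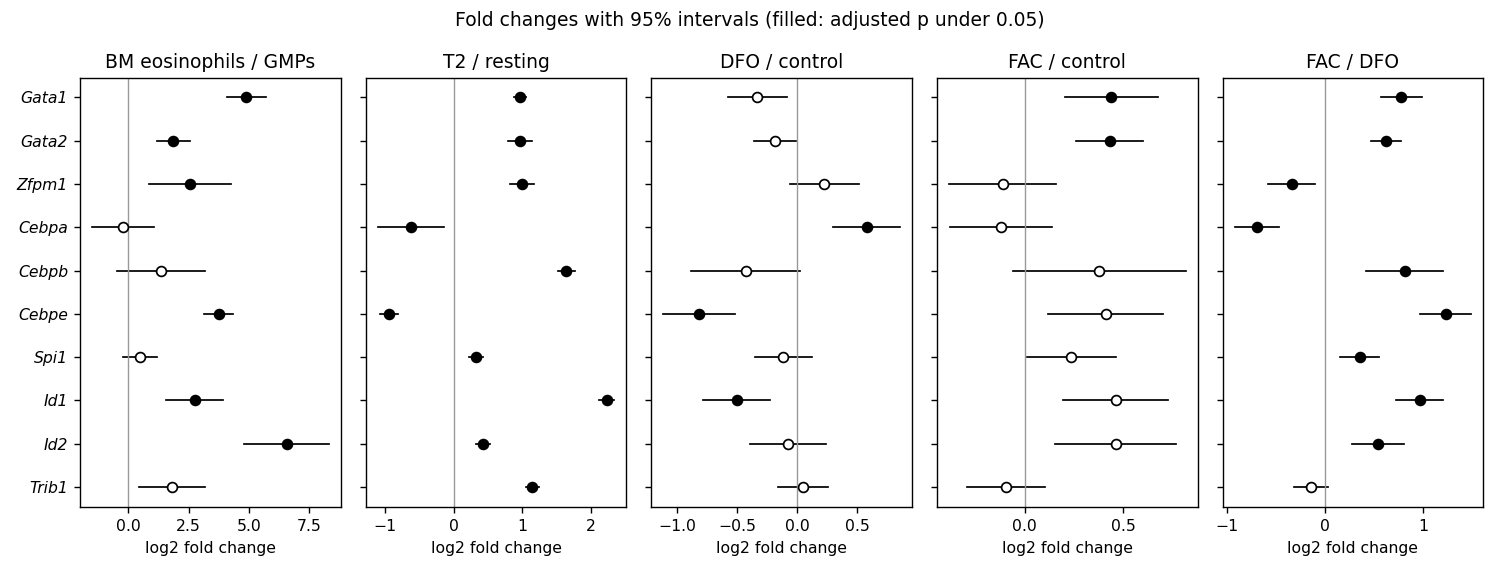
Log2 fold change of each gene in the 5 comparisons with its 95% interval from edgeR; filled points have an adjusted p under 0.05, and each panel has its own axis. In FAC against DFO, 7 genes lie to the right of 0 and Zfpm1 and Cebpa to the left, while Trib1 is open.

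In T2 eosinophils 8 of the members were higher than in resting eosinophils, and Cebpa and Cebpe were lower. Id1 rose most, by 2.23 on the log2 scale, then Cebpb by 1.64 and Trib1 by 1.14. Zfpm1, Gata1 and Gata2 rose by nearly the same amount, 1.00, 0.97 and 0.97. All 10 members were called and did not overlap between the groups, in a comparison in which 76.1% of 11345 genes were called (38.2% higher and 37.9% lower) and 77.7% did not overlap, so the number of members called is no result about them. The median log2 fold change was 0.97 over the members and -0.01 over all genes tested.

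Gata1 was at 251, 254 and 255 CPM in T2 replicates 1, 2 and 3, against 129, 128 and 131 CPM in resting eosinophils. Gata2 was at 38.5, 37.0 and 37.3 CPM in T2 eosinophils, against 21.5, 16.8 and 19.5 CPM in resting ones. Both were 1.96-fold higher (edgeR adjusted p = 5.36e-12 and 2.16e-08), and the replicates that differ in the interleukin named lay close together. The Gata1 to Gata2 ratio per transcript length, from the authors' FPKM, therefore differed little, at 12.9, 13.7 and 14.7 in T2 eosinophils and 11.2, 14.2 and 12.2 in resting ones. Zfpm1 was at 29.9, 28.4 and 25.6 CPM in T2 eosinophils, against 14.4, 13.8 and 13.6 CPM in resting ones (log2 fold change 1.00 ± 0.08, SE, n = 3 each, edgeR adjusted p = 1.45e-08). The cofactor gene thus rose as much as the GATA genes, with no overlap between the groups.

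Of the 3 C/EBP genes, Cebpb rose, and Cebpe and Cebpa fell. Cebpb was at 498, 523 and 531 CPM in T2 eosinophils, against 174, 176 and 148 CPM in resting ones, a log2 fold change of 1.64 ± 0.06 (SE, n = 3 each, edgeR adjusted p = 4.11e-13). Cebpe was at 132, 126 and 150.1 CPM in T2 eosinophils, against 273, 262 and 246 CPM in resting ones, and fell by 0.93 ± 0.06 (SE, n = 3 each, edgeR adjusted p = 9.24e-10). Cebpa was scarce, with 33, 32 and 36 reads in T2 eosinophils against 51, 57 and 60 in resting ones. Its fall of 0.62 ± 0.23 (SE, n = 3 each, edgeR adjusted p = 0.0201) lost its call in DESeq2 (adjusted p = 0.0986), with length and GC offsets (-0.38, edgeR adjusted p = 0.148) and without any 1 T2 library or resting library 3.

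Spi1 was at 388, 404 and 405 CPM in T2 eosinophils, against 335, 318 and 303 CPM in resting ones, a small rise of 0.33 ± 0.05 (SE, n = 3 each, edgeR adjusted p = 8.12e-06). On the authors' FPKM it was 0.07 (limma adjusted p = 0.221), where the median of all genes was -0.14. Gata1 per unit of Spi1, by FPKM, was 0.637, 0.637 and 0.648 in T2 eosinophils and 0.389, 0.362 and 0.356 in resting ones.

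Id1 was at 287, 287 and 289 CPM in T2 eosinophils, against 65.7, 60.7 and 57.7 CPM in resting ones, 4.69-fold higher (edgeR adjusted p = 2.44e-15). Id2 was at 633, 582 and 622 CPM in T2 eosinophils, against 475, 434 and 459 CPM in resting ones, and rose 1.34-fold (edgeR adjusted p = 4.41e-07). The T2 libraries of both ID genes lay above all resting ones. Trib1 was at 298, 310.2 and 295 CPM in T2 eosinophils, against 137, 139 and 133 CPM in resting ones, 2.21-fold higher (edgeR adjusted p = 1.18e-12).

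Over the 6 lists of partners and related factors 33 of 60 genes tested rose and 17 fell, which is 83.3% called, against 76.1% of all genes. Among them 11 of 13 GATA partners tested rose and 1 fell: Lmo2, a bridging protein of GATA complexes, rose by 1.08 and Runx1 by 0.94, and Cbfa2t3, a corepressor, fell by 0.93. Of 9 other C/EBP and bZIP genes, 5 rose and 3 fell, with Batf3 at 3.43 and Nfil3 at 1.86 upward and Cebpd at -1.37 and Bach2 at -0.63 downward. Of 9 ETS genes 4 rose and 3 fell, Ets2 by 2.15 upward among them. Spic rose by 6.82 on 4.95 ± 1.17 CPM in T2 eosinophils and 0.0363 ± 0.0316 CPM in resting ones (SD, n = 3 each), Erg fell by 1.22 and Elf4 by 0.17. Id3 fell by 2.63 on 0.199 ± 0.156 CPM in T2 eosinophils and 1.26 ± 0.0903 CPM in resting ones (SD, n = 3 each). In that list of ID and E protein genes 1 of 5 tested rose, Tcf12 by 0.65, and 3 fell, Tcf4 by 0.54. In the Tribbles list Det1 and Ddb1 rose by 0.31 and 0.17 and Trib3 fell by 0.77. Of 18 further granulocyte and progenitor factors 10 rose, Egr1 by 4.47 and Xbp1 by 2.60 among them, and 6 fell, Ikzf2 by 2.27 and Hlx by 1.17 among them. Mast cell and basophil markers summed to 465 to 515 CPM in T2 eosinophils and 80.3 to 87.3 CPM in resting ones, with 4 of 8 tested higher and 3 lower, and 7 of 13 neutrophil markers tested fell and 3 rose. Of 9 rows of eosinophil markers tested (Ear2, which has near-identical copies, has 3 rows in this table) 1 rose and 7 fell. Their sum was 4800 to 4856 CPM in T2 eosinophils and 6425 to 6728 CPM in resting ones. A wider list of eosinophil genes, which holds these markers beside Adgre1, Ccl6 and others, had 6 of 14 rows tested higher and 7 lower. Its sum went the other way, at 23956 to 24761 CPM in T2 eosinophils and 18515 to 18946 CPM in resting ones. Ear2 (1.73) and Adgre1 (1.66) rose most in it, and Alox15 (-1.90) and Il5ra (-1.41) fell most. The part of these markers in the members' values was not tested.

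In BMDEs, Gata1, Gata2, Cebpb, Cebpe, Spi1, Id1 and Id2 were higher with FAC than with DFO, and Zfpm1 and Cebpa were lower. Cebpe differed most, by 1.23 on the log2 scale, then Id1 by 0.97, Cebpb by 0.81, Gata1 by 0.78 and Cebpa by -0.69. So 9 of 10 members were called, 7 higher and 2 lower, where 48.2% of 12607 genes were called (23.5% higher and 24.8% lower). No member overlapped between these arms, against 55.7% of all genes that did not. The median log2 fold change was 0.58 over the members and -0.01 over all genes tested.

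**Figure D3:**
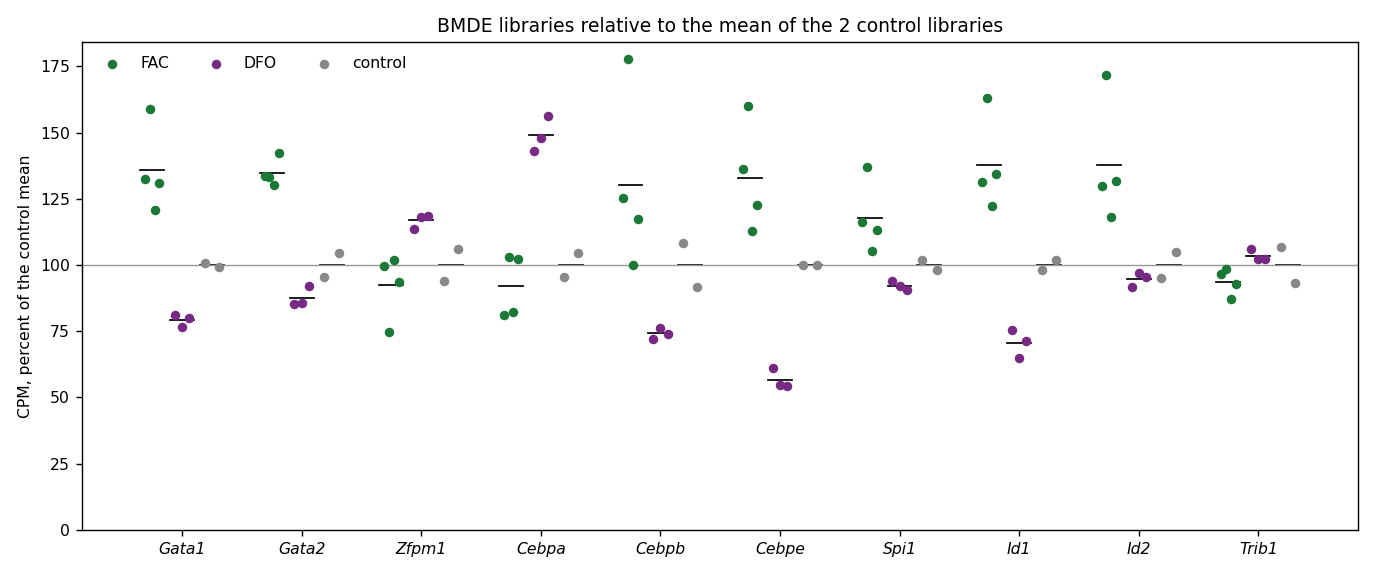
CPM of each gene in the 9 BMDE libraries as a percentage of the mean of the 2 control libraries; points are libraries, short lines are group means, and FAC, DFO and control stand left to right. Cebpe averages 133% with FAC and 56.7% with DFO, and Cebpa 92.2% with FAC and 149% with DFO; for each gene except Gata2 and Zfpm1 the highest FAC point is library 6.

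Against control, fewer members passed the test. With FAC 2 of 10 were called, Gata1 and Gata2, both higher, where 6.04% of genes were called (1.76% higher and 4.28% lower, a split that turned with offsets for length and GC content, to 929 genes higher and 747 lower), and 6 of 10 did not overlap, against 36.1% of all genes. With DFO 3 of 10 were called, Cebpa higher and Cebpe and Id1 lower, where 11.6% were called (6.46% higher and 5.12% lower), and 8 of 10 did not overlap, against 65.7% of all genes. The 2 control libraries are shared by both comparisons, so their results are not independent, and with only 2 of them the calls rest on few values. Without either control library no member was called in either comparison. With only the 2 arms compared in the fit, DFO against control called 8 members, beside 5982 of all 12469 genes tested. FAC against control called none at this setting, beside 116 of 12409 genes, with an edgeR adjusted p of 0.153 for Gata1 and 0.0775 for Gata2. The numbers of members called thus moved with the numbers over all genes.

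Gata1 was at 142, 171, 129.5 and 141 CPM in FAC libraries 5, 6, 7 and 8, at 87.2, 82.3 and 85.9 CPM in DFO libraries 9, 11 and 12, and at 108 and 106 CPM in controls 1 and 2. Its 3 arms did not overlap, with the controls between the others. The log2 fold change was 0.78 ± 0.09 for FAC against DFO (edgeR adjusted p = 0.000164), 0.44 ± 0.11 for FAC against control (adjusted p = 0.0413) and -0.33 ± 0.11 for DFO against control, which was not called (95% interval -0.58 to -0.09, edgeR adjusted p = 0.0825).

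Gata2, which exceeded Gata1 per transcript length in all 9 BMDE libraries, was at 635, 633, 618 and 675 CPM with FAC, 404, 406 and 437 CPM with DFO, and 454 and 496 CPM in controls. Again no arm overlapped another, and FAC library 6 did not stand out. The log2 fold change was 0.62 ± 0.07 for FAC against DFO (edgeR adjusted p = 8.20e-05), 0.43 ± 0.08 for FAC against control (adjusted p = 0.0130) and -0.19 for DFO against control (95% interval -0.37 to -0.02, edgeR adjusted p = 0.157). Because both GATA genes moved alike, the Gata1 to Gata2 ratio of TPM had overlapping ranges: 0.378 to 0.484 with FAC, 0.355 to 0.391 with DFO, and 0.390 and 0.433 in controls.

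Zfpm1 went against the GATA genes in the contrast of FAC with DFO. It was at 58.4, 43.7, 59.7 and 54.8 CPM with FAC, 66.5, 69.2 and 69.5 CPM with DFO, and 55.0 and 62.1 CPM in controls. All DFO libraries were above all others, and FAC library 6 was the lowest. The log2 fold change of FAC against DFO was -0.34 ± 0.11 (edgeR adjusted p = 0.0271), which was -0.17 and not called with offsets for length and GC content, and lost its call without any 1 DFO library or FAC library 8. Against control it was not called in either arm, at -0.11 for FAC (95% interval -0.38 to 0.16) and 0.22 for DFO (-0.06 to 0.51).

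Cebpe and Cebpa moved in opposite directions. Cebpe was at 431, 506, 357 and 388 CPM with FAC, 193, 173 and 172 CPM with DFO, and 316 and 317 CPM in controls. Cebpa was at 101, 128, 103 and 127 CPM with FAC, 178, 184 and 195 CPM with DFO, and 119 and 130.4 CPM in controls. Every DFO library had less Cebpe and more Cebpa than every other library, while FAC and control overlapped for Cebpa and not for Cebpe. Cebpe fell by 0.82 ± 0.13 with DFO against control (edgeR adjusted p = 0.00571) and was 0.41 with FAC against control, not called (95% interval 0.12 to 0.70, edgeR adjusted p = 0.101). Cebpa rose by 0.58 ± 0.12 with DFO against control (edgeR adjusted p = 0.0180), and FAC against control was -0.12 and not called (95% interval -0.38 to 0.14). FAC against DFO was 1.23 ± 0.12 for Cebpe and -0.69 ± 0.10 for Cebpa (edgeR adjusted p = 4.15e-05 and 0.000521). The Cebpe to Cebpa ratio of TPM was 10.5, 9.54, 8.50 and 7.47 with FAC, 2.65, 2.29 and 2.16 with DFO, and 6.49 and 5.94 in controls, so that no arm overlapped another.

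Cebpb was at 115, 163, 91.7 and 108 CPM with FAC, 66.1, 70.0 and 68.0 CPM with DFO, and 99.3 and 84.2 CPM in controls. FAC library 6 was far above the rest and FAC overlapped control, but all DFO libraries were below all others. It rose by 0.81 ± 0.17 in FAC against DFO (edgeR adjusted p = 0.00454) and was not called against control, at 0.38 for FAC (95% interval -0.06 to 0.82) and -0.43 for DFO (-0.89 to 0.02).

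Spi1 differed little: 332, 390.5, 300.1 and 324 CPM with FAC, 268, 263 and 259 CPM with DFO, and 291 and 279.6 CPM in controls. FAC against DFO was 0.35 ± 0.09 on the log2 scale (edgeR adjusted p = 0.00959), and 0.05 and not called on the authors' TPM, where the median of all genes was -0.27. Per transcript length, Gata1 relative to Spi1 was 0.312 to 0.320 with FAC, 0.230 to 0.244 with DFO, and 0.272 and 0.279 in controls, and these ranges were narrow and apart.

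Id1 was at 59.5, 73.9, 55.3 and 60.7 CPM with FAC, 34.1, 29.3 and 32.2 CPM with DFO, and 44.4 and 46.1 CPM in controls. It fell by 0.51 ± 0.12 with DFO against control (edgeR adjusted p = 0.0302) and was 0.46 with FAC against control, just short of a call (95% interval 0.19 to 0.73, edgeR adjusted p = 0.0536). Id2 was at 98.2, 130.0, 89.5 and 99.7 CPM with FAC, 69.4, 73.4 and 72.3 CPM with DFO, and 72.0 and 79.4 CPM in controls. No arm of Id1 overlapped another. Id2 with DFO overlapped control, and with FAC it lay above both other arms (log2 fold change 0.46 against control, edgeR adjusted p = 0.0837, and 0.54 ± 0.12 against DFO, edgeR adjusted p = 0.00542). FAC against DFO was 0.97 ± 0.11 for Id1 (edgeR adjusted p = 9.86e-05).

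Trib1 differed least between FAC and DFO in CPM (on the authors' TPM Spi1 did), at 23.1, 23.6, 20.8 and 22.3 CPM with FAC, 25.4, 24.5 and 24.5 CPM with DFO, and 25.6 and 22.3 CPM in controls. It was called in none of the 3 comparisons, and FAC against DFO was -0.14 (95% interval -0.32 to 0.03, edgeR adjusted p = 0.152). With library size alone as the scale it was called at -0.27, and on the authors' TPM at -0.41, scales on which the median of all genes was -0.14 and -0.27.

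Leaving out FAC library 6 raised the members called in FAC against control to 6, adding Cebpe, Spi1, Id1 and Id2 (0.32, 0.17, 0.38 and 0.35 on the log2 scale), and leaving out FAC library 7 raised them to 5. Over all genes the calls rose as well, from 761 of 12607 to 2728 of 12560 without library 6 and 1066 of 12590 without library 7. Without FAC library 5 or FAC library 8 only 1 member was called, and Gata1 lost its call (edgeR adjusted p = 0.0919 and 0.0840). Calls over all genes then fell to 345 and 335. The member counts thus moved with those over all genes. In FAC against DFO each called member except Zfpm1 was also called without library 6 and without any other 1 library. On the authors' TPM library 6 was no longer the highest of the FAC libraries for Gata1, with 119, 115, 118 and 120.1 TPM with FAC, 86.7, 83.6 and 87.4 TPM with DFO, and 103 and 102 TPM in controls.

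**Figure D4:**
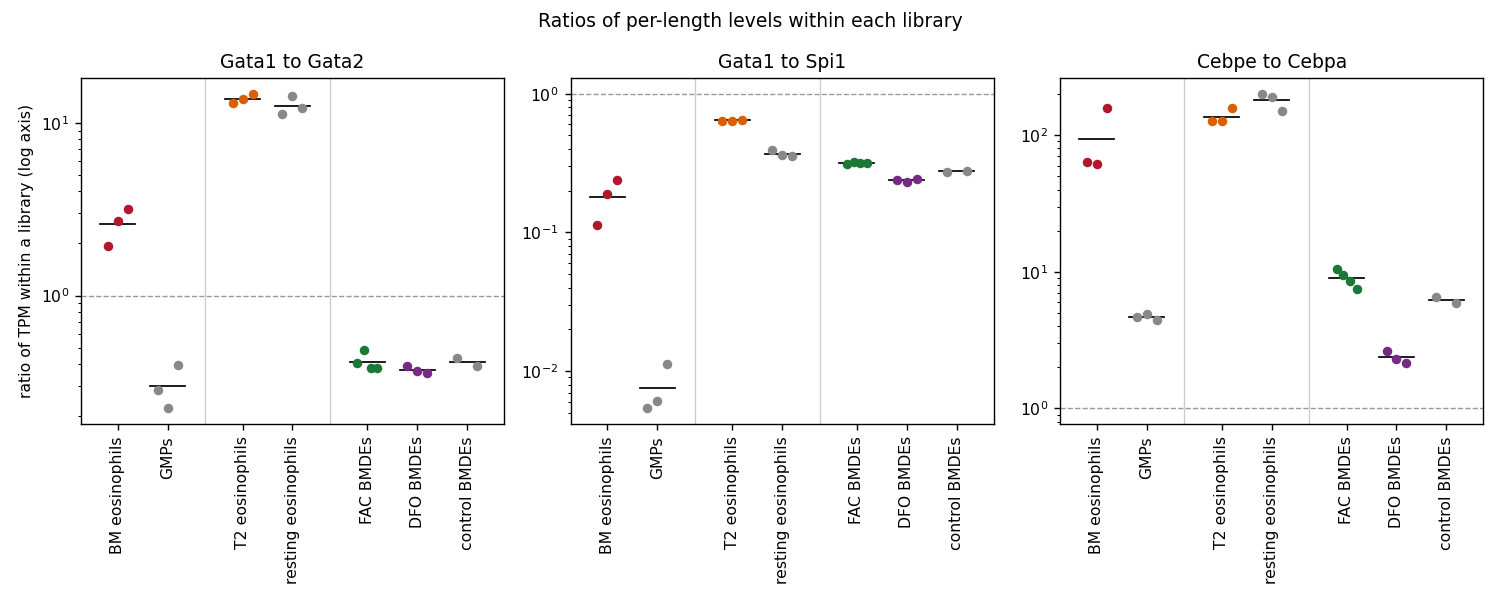
Ratio of the per-length levels of 2 genes within each library, on log axes; points are libraries, lines are group means, the dashed line is equality, and the T2 and resting libraries use the authors' FPKM. Gata1 exceeds Gata2 in all bone marrow, T2 and resting eosinophil libraries and lies under it in GMPs and in all 9 BMDE libraries.

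Over the 6 lists of partners and related factors 2 of 65 genes rose and 6 fell with FAC against control (12.3% called, against 6.04% of all genes), 7 rose and 2 fell with DFO against control (13.8%, against 11.6%), and 11 rose and 23 fell in FAC against DFO (52.3%, against 48.2%). None of 15 GATA partners tested was called with FAC, and with DFO Lmo2 alone rose (0.38). In FAC against DFO 5 of 15 rose, Klf1 by 0.78 and Gfi1b by 0.49 among them, and 2 fell, Lmo2 by 0.69 and Tal1 by 0.54. Of 9 other C/EBP and bZIP genes, 3 rose and 3 fell in FAC against DFO, with Atf4 at 0.99 and Batf at 0.65 upward and Bach2 at -1.17 and Bach1, a heme-sensing repressor, at -0.69 downward, and Nfil3 alone was called with FAC against control (0.43). The ETS gene Spib, a factor of plasmacytoid dendritic cells, fell by 0.95 with FAC against control, rose by 0.85 with DFO against control and was 1.80 lower in FAC against DFO on the log2 scale. Spic rose by 0.79 with DFO against control and Elf1 fell by 0.47 in FAC against DFO. Tcf4, an E protein gene, fell by 0.91 with FAC against control and rose by 0.80 with DFO against control, and Tcf4 and Hes1 fell by 1.72 and 0.76 in FAC against DFO.

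In the Tribbles list Trib3, a target of the stress factor ATF4, differed between the arms: it averaged 14.1 ± 1.82 CPM with FAC, 2.87 ± 0.563 CPM with DFO and 6.94 ± 0.559 CPM in controls (SD, n = 4, 3 and 2). Its log2 fold change was 2.30 for FAC against DFO (edgeR adjusted p = 7.00e-06), 1.02 for FAC against control and -1.27 for DFO against control. Cop1 fell by 0.23 in FAC against DFO. Among 20 further granulocyte and progenitor factors, 2 rose (Myc and Xbp1, by 0.33 and 0.31) and 12 fell in FAC against DFO, Irf8 by 1.70 and Meis1 by 1.06 among them. Against control, FAC lowered 4 of the 20, Irf8 by 0.79 and Meis1 by 0.55 among them, while DFO raised 3, Irf8 by 0.91 and Meis1 by 0.52 among them, and lowered Myc by 0.43.

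Markers of cell types moved beside the members. The 10 eosinophil markers summed to 57859 to 70002 CPM with FAC, 18627 to 22014 CPM with DFO, and 42536 and 43485 CPM in controls, and all 10 rose in FAC against DFO. Ear1 and Ear2, ribonuclease genes of near-identical copies whose reads may be shared, rose by 2.48 and 2.28 in that contrast. Of 14 neutrophil markers 13 fell and 1 rose in FAC against DFO (7234 to 10197 CPM with FAC, 18908 to 21150 CPM with DFO, 10430 and 12417 CPM in controls). In that contrast 9 of 10 progenitor markers, 11 of 12 plasmacytoid and other dendritic cell markers, Irf8 and Tcf4 among them, and 8 of 10 megakaryocyte markers also fell. Of 10 mast cell and basophil markers tested, a lineage that uses Gata1 and Gata2, 5 rose and 4 fell, and their sum was lower with FAC (3927 to 4961 CPM) than with DFO (5019 to 5768 CPM), with 3912 and 4601 CPM in controls. Of 13 monocyte and macrophage markers tested 3 rose and 4 fell, with sums of 2795 to 4128 CPM with FAC, 2326 to 2461 CPM with DFO, and 2471 and 2631 CPM in controls. Cebpa and Zfpm1 moved in the direction of most neutrophil, progenitor, dendritic cell and megakaryocyte markers. Gata1, Gata2, Cebpb, Cebpe, Spi1, Id1 and Id2 moved in that of the eosinophil markers. The part of a changed cell mixture in the members' values was not tested.

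Over the 7 groups, which span 3 tables normalized separately, the order of the members' mean CPM differed. A difference between groups of different tables cannot be told apart from a difference between the tables. Gata1 was highest in T2 eosinophils at 254 CPM and lowest in GMPs at 3.11 CPM, while the ranges of FAC BMDEs and resting eosinophils overlapped. Gata2 had its 3 highest means in the BMDE arms (416 to 640.4 CPM) and its lowest in resting eosinophils and GMPs (19.3 and 18.1 CPM), whose ranges overlapped. Zfpm1 and Cebpa also had their 3 highest means in the BMDE arms, and Cebpb, Id1, Id2 and Trib1 had their highest in T2 eosinophils. As a ratio of the highest to the lowest group mean Cebpb spanned most, a ratio that rests on the 6 to 11 reads of each GMP library, with 0.272 CPM in GMPs, 0.701 CPM in bone marrow eosinophils and 517.6 CPM in T2 eosinophils, and Spi1 least (1.60-fold), with neighbouring groups overlapping except for GMPs over control BMDEs and control over DFO BMDEs.

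The genes whose mean log2(CPM + 1) over the 7 groups was most like a member's, among 8513 genes with at least 10 CPM in 1 group or more, are a description of these group means. For Gata1 they were Alox5, Aqp9 and Gfi1b (Pearson r 0.995, 0.993 and 0.992), for Gata2 Spp1, Golim4 and Hs3st1 (0.992, 0.990 and 0.988), and for Cebpa Rbpms2, Esam and Vwf (0.999, 0.998 and 0.996). For Cebpe they were Ear1, Tmem219 and Gsn (0.982, 0.957 and 0.955), for Id1 Hpn, Cdc42ep2 and Mgll (0.977, 0.974 and 0.973), and for Trib1 Kctd11, Adgrg6 and Lmbrd1 (0.996, 0.993 and 0.993).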

How the data were processed

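The 10 genes and the gene lists were chosen with earlier results of these data known. Per the submitters' processing notes, the tools were RSEM, HISAT2, fastp 0.18.0, StringTie 1.3.1 and Bowtie2 2.2.8, with mm10; which tool made which column is not given in the sources used here. For the GMP and BMDE tables the authors deposited expected counts (estimated reads per gene, not normalized) and TPM. For the T2 table the authors deposited read counts and FPKM, which were rescaled to 1 sum per library for ratios. After rounding of expected counts, the 3 tables were fitted separately in edgeR 4.0.16 (R 4.3.3) with filterByExpr (minimum count 10), TMM factors and the two-sided quasi-likelihood F test, the 3 BMDE arms in 1 fit, and p-values were adjusted over all genes tested. SE and 95% intervals come from the F statistic. All members are named in each comparison; from each list up to 2 called genes per direction, those with the largest change, are named. Alternatives were RLE and upper-quartile factors, no filter, offsets for length and GC content, counts not rounded, each library left out, a replicate block, fits of 2 arms and DESeq2 1.42.0. Library size alone and limma 3.58.1 on log2(TPM + 1) or log2(FPKM + 1) were added after seeing the data.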

Additional observations from a re-analysis of the deposited data

How the results depend on the processing

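The number of members called in DFO against control was 3, and became 6 with offsets for length and GC content and 8 with only the 2 arms in the fit. In FAC against control it was 2, and became 1 with upper-quartile factors, 5 with offsets, 0 with only the 2 arms, 5 with DESeq2 and 0 with limma on TPM. Leaving out 1 library gave 4 to 8 members in bone marrow eosinophils against GMPs, 9 to 10 in T2 against resting eosinophils, 0 to 2 in DFO against control, 0 to 6 in FAC against control and 8 to 9 in FAC against DFO. Where 1 control is left, it is assumed to vary like the other arms.

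Over all genes, calls for bone marrow eosinophils against GMPs numbered 2413, against 4055 in DESeq2, 4873 on TPM and 747 to 4623 without 1 library (highest without eosinophil library 3). For DFO against control they numbered 1460, against 2933 with offsets, 5982 with 2 arms and 217 to 699 without 1 library. For FAC against control they numbered 761, against 1676 with offsets, 116 with 2 arms, 1300 in DESeq2 and 76 to 2728 without 1 library. The share of calls that were higher depended on the scale. It was 65.7%, 50.2%, 55.8%, 29.2% and 48.7% in the 5 comparisons (bone marrow eosinophils against GMPs, T2 against resting, DFO against control, FAC against control, FAC against DFO). It was 40.3%, 36.3%, 63.3%, 16.0% and 32.3% with library size alone, 54.9%, 51.7%, 45.1%, 55.4% and 60.7% with offsets for length and GC content, and 13.2%, 39.2%, 71.4%, 12.1% and 17.6% on TPM or FPKM.

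Direction turned for Cebpa in bone marrow eosinophils against GMPs without eosinophil library 3 (0.20; leaving out 1 library gave -0.58 to 0.20), Spi1 there on TPM (-0.70), Trib1 in DFO against control with offsets (-0.0075) or without control 2 (leaving out 1 library gave -0.048 to 0.15), Id2 there on TPM (0.0035), and Trib1 in FAC against control without control 1 (leaving out 1 library gave -0.19 to 0.0099). None of these 6 values was called. The Gata2 rise in bone marrow eosinophils against GMPs lost its call on TPM (0.73, limma adjusted p 0.262). Zfpm1 and Cebpb, at no more than 0.88 and 0.89 TPM in any library there, were under the low-level filter of the limma fit and were not tested in it. The causes were not tested.

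Whether replicate numbers pair the samples is not known. Deviations from the group means correlated at 0.01, 0.00 and 0.12 for same-numbered libraries in the GMP table, and at -0.18 to 0.14 for differently numbered ones. With 3 libraries per group this cannot decide whether they are paired. With the replicate block, 5 members and 1419 genes were called there, Zfpm1 lost its call (adjusted p 0.173), and 10 members and 8498 genes were called in T2 against resting eosinophils. Low numbers of reads limit Zfpm1 and Cebpb in the GMP table and Cebpa in the T2 table. The longest transcripts of Zfpm1 and Cebpb had a GC content of 66.8% and 67.2%, against a median of 49.8% over the genes of the GMP table. That of Cebpe, which was not scarce there, was 61.5%. The GMP table had the highest total counts per library, and the cause of the low numbers was not tested.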
